A study of Mus musculus with 8 samples.

Results

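The 10 genes followed here act on cell division and on its end in heart muscle. They are the cyclin-dependent kinases Cdk1, Cdk2, Cdk4 and Cdk6, the CIP/KIP inhibitors Cdkn1a, Cdkn1b and Cdkn1c, the INK4 inhibitors Cdkn2c and Cdkn2d, and the transcription factor Meis1. They were chosen by symbol, as genes that govern the exit of heart muscle from the cell cycle after birth, and each of the 10 is listed once among the 37982 genes of the authors' deposited table. RNA came from ventricles of C57BL/6 pups at postnatal day 7, with 2 wild type, 3 double mutant and 3 triple mutant samples among those described here. How many libraries entered each group of the deposited table is not stated in it. From the study, and not from the labels, the double mutants are known to carry engineered alleles of Mkl2, a coactivator of serum response factor, and of Myh7, the beta myosin heavy chain, and the triple mutants carry in addition an allele of the cardiac homeobox gene Nkx2-5, whose effect as a modifier the study asked about. The ventricle holds muscle, endothelial, stromal and blood cells, and no cell type was separated. The labels do not say whether the samples are single pups or pools, nor their sex.

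In textbook terms, Cdk4 and Cdk6 with D-type cyclins start the inactivation of the retinoblastoma protein, Cdk2 with cyclins E and A carries the cell into DNA replication, and Cdk1 with cyclins A and B drives mitosis. CIP/KIP proteins bind assembled cyclin-kinase complexes, whereas INK4 proteins bind Cdk4 and Cdk6 alone. Mouse cardiomyocytes stop dividing in the days after birth, and Meis1, a homeodomain factor of the TALE class, is known to promote that exit and to activate genes of cyclin-dependent kinase inhibitors.

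Of these genes, the inhibitor Cdkn1a was the 1 with a q-value under 0.05 in the authors' Cuffdiff test. Its transcript was listed at 19.4 FPKM in wild type and 19.8 in double mutant ventricles and was 1.57-fold higher in the triple mutant than in wild type (q = 0.038). Against the double mutant its q-value of 0.0974 missed that threshold. A missing call does not show that a gene was unchanged. Cdk1 had the next widest range among the members above an FPKM of 1, lowest in the double mutant, but no difference of Cdk1 passed the test. The widest fold between groups among the other members above that level was 1.29, for Cdkn1c, and none passed the test.

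The values are FPKM, fragments counted relative to transcript length and to the library's total, so levels can be set side by side between genes. The file holds 1 FPKM per gene and genotype, with the authors' fold change, p-value and q-value, and no value per sample. The spread between samples could therefore not be computed, and the depth is unknown. A difference is called here when the authors' q-value is under 0.05. The lowest q-value of their Cuffdiff test is 0.0066, at its lowest p-value of 5e-05, so genes given at 0.0066 cannot be ranked by it. As an approximate error, a 95% interval of the log2 fold change was derived from each p-value under a normal approximation, which reflects the error model of the authors' test and not a measured spread.

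**Figure D1:**
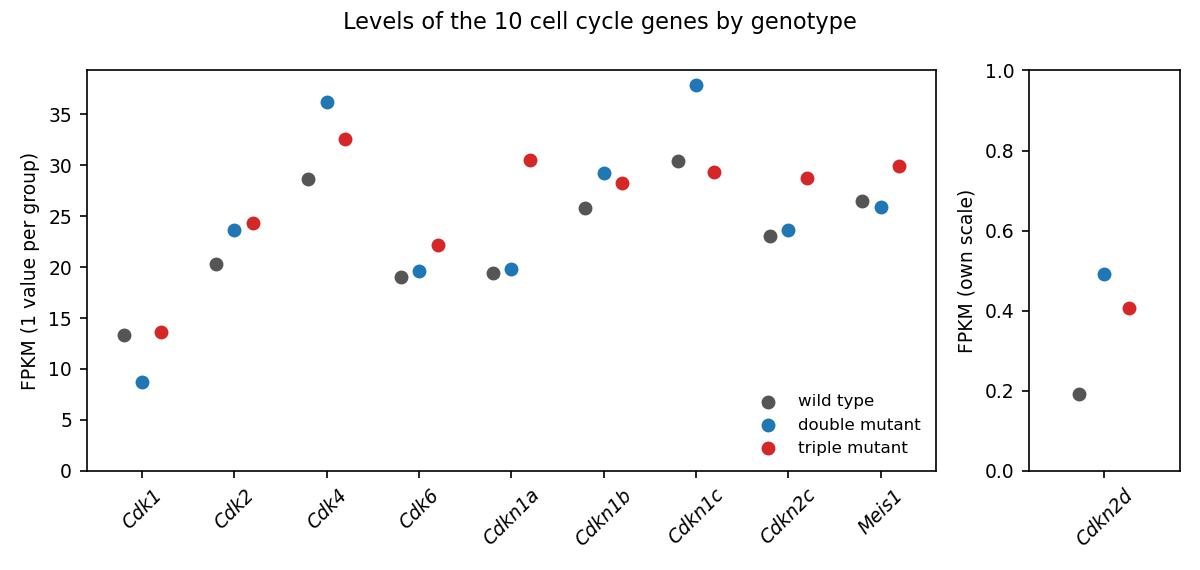
FPKM (y axis) of each member in wild type, double mutant and triple mutant ventricles, 1 point per group and no error, with Cdkn2d on its own scale at the right. Cdkn1a sits at 19.4, 19.8 and 30.5, and Cdk1 is lowest in the double mutant at 8.70.

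Of the 10 members, 9 were tested in every comparison of the authors' deposited table, and Cdkn2d in none. Of the 9, 1 was called for triple mutant against wild type, where 1.52% of the 12986 genes tested were called and 1.16% were called higher. By the authors' Cuffdiff test none of the 9 was called for triple against double mutant (1.25% of 12786 genes) or for double mutant against wild type (2.65% of 13034 genes). At an unadjusted p under 0.05 the members numbered 2, 2 and 1 in these comparisons, beside 12.1%, 8.45% and 16.3% of all genes tested. With 9 genes tested, 1 call is too few to be set against the background share. In the same order of comparisons, the median log2 fold change of the 9 was 0.18, 0.17 and 0.05, while the medians of all tested genes were -0.00258, -0.00108 and -0.00298. The 3 comparisons share their groups, so these values are not independent.

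**Figure D2:**
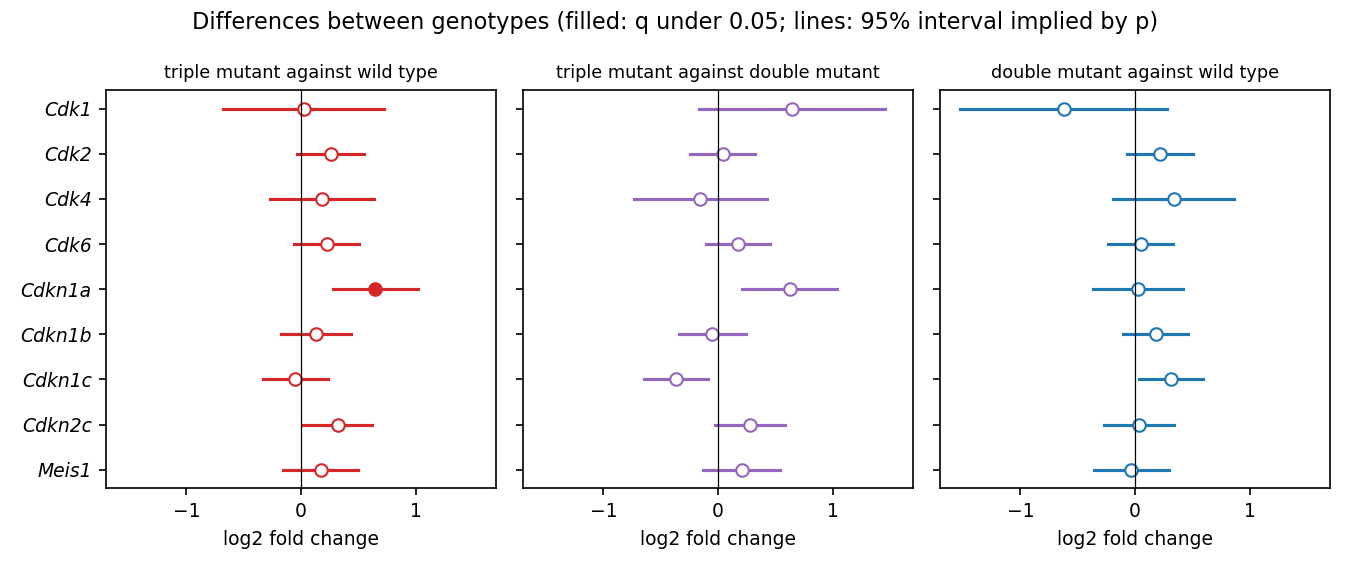
Log2 fold change (x axis) of the 9 tested members in each comparison, with lines for the 95% interval implied by the authors' p-value and filled points for a q-value under 0.05. The single filled point is Cdkn1a for triple mutant against wild type, at 0.65.

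The promoters of Cdkn1a, Cdk1 and Cdk2 are shown because Cdkn1a was the member called and Cdk1 had the widest interval of the kinases, with Cdk2 as the other kinase whose promoter held an E2F match. Each sequence is the 250 bases before a RefSeq transcription start in GRCm38.p6, which is a later build than the mm9 of the expression file, written in the direction of transcription. Capitals mark matches on either strand to the CHR element (TTTGAA or TTCGAA), an E2F site (TTTCCCGC, TTTGGCGC, TTTCGCGC or TTTGCCGC), the NF-Y box (CCAAT), or a full p53 site, meaning 2 copies of the p53 consensus decamer at most 13 bases apart. The p53 search was settled on after the call of Cdkn1a was known and its promoter had been read. Cdk1 lies on the minus strand at chr10:69352913-69353162, Cdk2 on the minus strand at chr10:128705052-128705301, and the 2 starts of Cdkn1a on the plus strand at chr17:29090729-29090978 and chr17:29093519-29093768.
Cdkn1a start 1: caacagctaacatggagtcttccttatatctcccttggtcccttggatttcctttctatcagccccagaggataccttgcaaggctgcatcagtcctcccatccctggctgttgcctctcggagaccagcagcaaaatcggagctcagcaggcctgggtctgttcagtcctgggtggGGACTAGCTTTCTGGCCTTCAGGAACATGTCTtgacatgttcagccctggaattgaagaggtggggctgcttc
Cdkn1a start 2: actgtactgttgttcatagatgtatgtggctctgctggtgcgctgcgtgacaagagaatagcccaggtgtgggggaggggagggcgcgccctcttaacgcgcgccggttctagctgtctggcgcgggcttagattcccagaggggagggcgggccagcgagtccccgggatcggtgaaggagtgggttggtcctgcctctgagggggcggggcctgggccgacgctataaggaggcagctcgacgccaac
Cdk1: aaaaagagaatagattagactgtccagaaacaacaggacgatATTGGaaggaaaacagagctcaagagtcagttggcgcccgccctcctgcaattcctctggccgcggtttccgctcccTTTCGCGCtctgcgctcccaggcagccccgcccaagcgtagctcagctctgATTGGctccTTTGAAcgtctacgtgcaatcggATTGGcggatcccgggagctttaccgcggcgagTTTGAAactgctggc
Cdk2: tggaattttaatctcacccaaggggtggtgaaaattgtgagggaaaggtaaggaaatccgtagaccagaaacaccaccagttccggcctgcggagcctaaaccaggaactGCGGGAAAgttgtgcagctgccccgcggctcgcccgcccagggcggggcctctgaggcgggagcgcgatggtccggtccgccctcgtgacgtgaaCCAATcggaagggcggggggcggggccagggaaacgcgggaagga

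With no mismatch allowed, the upstream start of Cdkn1a held a full p53 site as defined above, 73 to 42 bases before the start. The bases directly after it, tgacatgttc, miss the decamer at the first base alone, so that adjoining pair was not marked. Of the 32851 promoters searched, 0.0639% hold a full site by this exact rule. Because the search was settled on after this promoter had been read, that share cannot weigh the match. The second start of Cdkn1a held no match. The Cdk1 promoter carried 2 CHR elements, at 71 and 15 bases, 1 E2F match, at 131 bases, and 3 NF-Y boxes, counted from the first base of each match to the start. Among all promoters 17.1% hold a CHR element, 1.86% an E2F match and 33.8% an NF-Y box. Promoters were found for 9 of the 10 members (11 starts in all), and E2F matches occurred in 2 of these 11, Cdk1 and Cdk2, and a CHR element in 1, Cdk1. The motif of TALE factors such as Meis1 (TGACAG or TGATTGAC), held by 16.3% of promoters, was matched once, before the second start of Cdkn2c. A match describes the letters in this window, and binding was not measured.

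**Figure D3:**
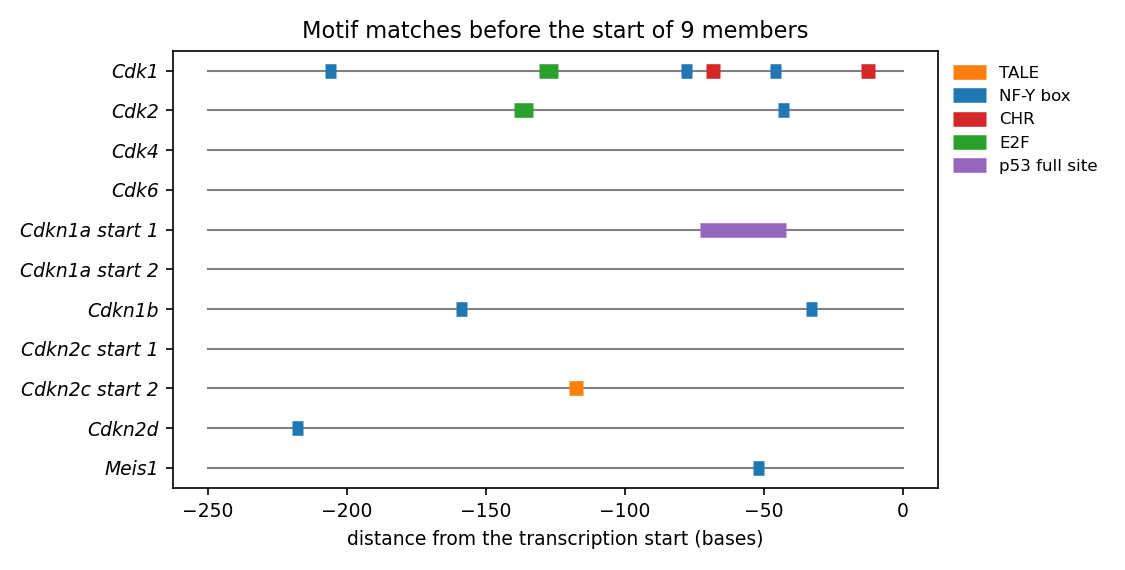
Motif matches along the 250 bases before each of the 11 RefSeq starts of 9 members (x axis, distance from the start in bases), coloured by motif. Cdk1 carries 6 matches, and the only full p53 site by the exact rule lies before the first start of Cdkn1a.

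Cdkn1a (ENSMUSG00000023067, protein coding, mm9 chromosome 17, 29227924 to 29237667) encodes the inhibitor p21, a target of p53 that binds Cdk2 and Cdk1 complexes. Its FPKM in the authors' deposited table was 19.4 in wild type, 19.8 in double and 30.5 in triple mutants. The triple mutant was the high group, and the other groups lay close together. Against wild type the authors' deposited table gives a log2 fold change of 0.65 (q = 0.038), with an implied interval of 0.28 to 1.02, and 166 of the 12986 genes tested had a lower p-value. Against the double mutant the fold was similar, 1.54, at a log2 fold change of 0.63 with an implied interval of 0.21 to 1.04, but its q-value of 0.0974 in the authors' deposited table misses the threshold used here and lies just inside the authors' own mark of 0.1, which 1.98% of the genes tested met. For double mutant against wild type the log2 fold change in the authors' deposited table was 0.02 (q = 0.986), with an implied interval of -0.37 to 0.42. Whether the 2 comparisons with the triple mutant differ in size was not tested. Cdkn1a ranked 7 of the 10 members by level in wild type and double mutant and 2 in the triple mutant.

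Cdkn1b (mm9 chromosome 6, 134870419 to 134875531), which encodes p27, a brake on Cdk2 in resting cells, was listed at 25.8, 29.2 and 28.3 FPKM in wild type, double and triple mutant. Both mutants were slightly above wild type, and the lowest of its 3 q-values in the authors' deposited table was 0.71. Cdkn1c (mm9 chromosome 7, 150644255 to 150646955), an imprinted gene for the inhibitor p57, had an FPKM of 30.4, 37.8 and 29.3 in the same order. Its double mutant value was the highest of any member in any group, and wild type and triple mutant were close. The log2 fold change of triple against double mutant was -0.37 in the authors' deposited table, with an implied interval of -0.65 to -0.09, yet the q-value of 0.185 did not pass. For double mutant against wild type it was 0.32 (q = 0.299) in the authors' deposited table, which did not pass either.

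The 3 CIP/KIP transcripts together reached a summed FPKM of 75.6 in wild type, 86.9 in double and 88.1 in triple mutants. Within that sum Cdkn1a held 25.7% in wild type, 22.8% in double mutants and 34.6% in triple mutants, where it was the largest of the 3. Cdkn1c made up 40.2%, 43.6% and 33.3%, and Cdkn1b stayed between 32.1% and 34.1%. Sums and shares carry no error, and no test was made on them.

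Among the INK4 genes, Cdkn2c (mm9 chromosome 4, 109333481 to 109339794), which encodes p18, was listed at 23.0 FPKM in wild type, 23.6 in double and 28.7 in triple mutants. Its order of groups was that of Cdkn1a, with a smaller step. The log2 fold change of triple mutant against wild type was 0.32 in the authors' deposited table, with an implied interval of 0.02 to 0.62, and the q-value of 0.352 did not pass. Against the double mutant it was 0.28 (q = 0.47) in the authors' deposited table. Cdkn2d (mm9 chromosome 9, 21092907 to 21095653), for the inhibitor p19 of the same family, was listed at 0.193, 0.492 and 0.408 FPKM and was not tested, so no order is read from it. The other INK4 genes, Cdkn2a and Cdkn2b, were also low, at 0.455 and 1.67 FPKM in wild type and 0.331 and 0.692 in the triple mutant. Cdkn2c was thus the 1 INK4 transcript above 2 FPKM in these ventricles.

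Cdk1 (mm9 chromosome 10, 68799383 to 68815686), the mitotic kinase, was listed at 13.4 FPKM in wild type, 8.70 in double and 13.6 in triple mutants. The double mutant was the low group, and the outer groups were nearly equal. In the authors' deposited table the log2 fold change was -0.62 for double mutant against wild type (q = 0.674) and 0.64 for triple against double mutant (q = 0.579). The implied intervals, -1.52 to 0.28 and -0.17 to 1.46, were the widest of any member, with an implied standard error of 0.46 and 0.41 against 0.14 to 0.30 for the others. For triple mutant against wild type the interval was -0.68 to 0.73, so a triple mutant level up to 1.65-fold that of wild type lies within it.

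Cdk2 (mm9 chromosome 10, 128134995 to 128142107), the kinase of S phase entry, stood at 20.3, 23.6 and 24.3 FPKM in wild type, double and triple mutant. Both mutants were above wild type, but the q-values in the authors' deposited table were 0.611 and 0.496. Cdk4 (mm9 chromosome 10, 126500590 to 126507317) had the highest kinase level, at 28.6, 36.2 and 32.5 FPKM, and its lowest q-value in the authors' deposited table was 0.712. Cdk6 (mm9 chromosome 5, 3343893 to 3523218) stood at 19.0, 19.7 and 22.2 FPKM, with a lowest q-value of 0.579 in the authors' deposited table. The file lists the locus of Cdk4 also for Tspan31, a protein coding gene on the opposite strand, and that of Cdk6 also for Gm17590. Whether the counting used strand is not given in the sources used here, so the reads of these pairs may have been split or joined.

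Summed FPKM of the 4 kinases was 81.3 in wild type, 88.2 in double and 92.6 in triple mutants. The 5 inhibitors summed to 98.9, 111 and 117, so the ratio of inhibitor to kinase transcripts was 1.22, 1.26 and 1.27 and moved little between groups. Inside the kinase sum Cdk1 held 16.4% in wild type, 9.87% in double and 14.7% in triple mutants, while Cdk4 held 35.2%, 41.0% and 35.1%.

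**Figure D4:**
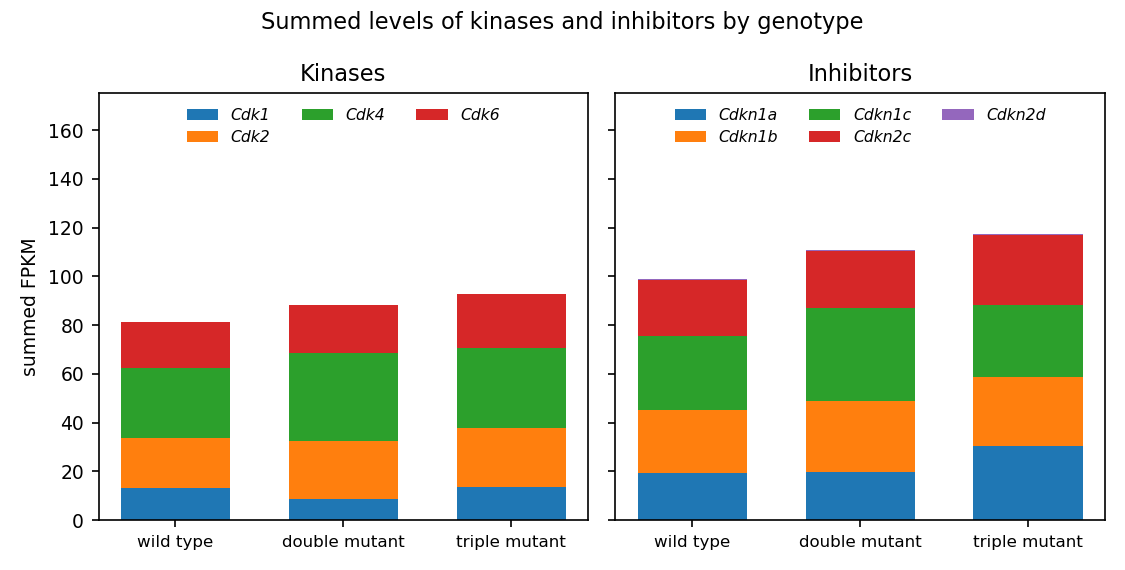
Summed FPKM (y axis, from 0) of the 4 kinases at the left and the 5 inhibitors at the right, stacked by gene for each genotype, with no error. The bottom segment of the inhibitors, Cdkn1a, is widest in the triple mutant, and the bottom segment of the kinases, Cdk1, is narrowest in the double mutant.

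Meis1 (mm9 chromosome 11, 18780433 to 18918961) was listed at 26.5 FPKM in wild type, 25.9 in double and 29.9 in triple mutants. The groups lay close together: against wild type the triple mutant had a log2 fold change in the authors' deposited table of 0.17 (q = 0.791), with 0.21 for the triple against the double mutant (q = 0.733) and -0.03 for the double mutant against wild type (q = 0.977). The implied intervals reached from -0.15 to 0.50, from -0.13 to 0.54 and from -0.36 to 0.29, so a rise of Meis1 by more than 1.46-fold lies outside all 3. Its locus is listed also for the antisense genes Gm16140 and Gm16141, with the same limit on strand as above.

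Within each group most members lay close in level. In wild type the order fell from Cdkn1c through Cdk4, Meis1, Cdkn1b, Cdkn2c, Cdk2, Cdkn1a and Cdk6 to Cdk1 and Cdkn2d. In the double mutant Cdkn1c and Cdk4 again led, and in the triple mutant Cdk4 led at 32.5 FPKM, followed by Cdkn1a at 30.5, Meis1 at 29.9 and Cdkn1c at 29.3. Cdk1 and Cdkn2d closed the order in every group. With no spread between samples, neighbours in these orders cannot be told apart. Other than Cdkn2d, each member was above the median of the genes at 1 FPKM or more (9.11, 9.27 and 9.23 FPKM in wild type, double and triple mutants), except Cdk1 in the double mutant.

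The partners through which these genes act were described from 8 lists, in which Ccnb1, Ccna2 and Mdm2 stand in 2 lists each. The cyclins bind and activate the kinases. For triple against double mutant 2 of 9 tested cyclins were called higher, beside 0.704% of all genes tested, and none lower. These were Ccnb1, the B-type partner of Cdk1, from an FPKM of 17.6 to 31.4 (q = 0.0066), and Ccna2, the A-type partner of Cdk1 and Cdk2, from 63.7 to 98.3 (q = 0.0244), both in the authors' deposited table, and the file lists the locus of Ccna2 for another gene as well. Cdk1 had a fold of 1.56 in that comparison, between those of Ccna2 (1.54) and Ccnb1 (1.79) in the authors' deposited table, with the wider interval given above. In the other comparisons no cyclin was called, and the median log2 fold change of the 9, with the comparisons ordered as above, was -0.03, 0.12 and -0.20. Ccnd2, a partner of Cdk4 and Cdk6, had the highest level of the list, at 99.0, 97.5 and 86.3 FPKM in wild type, double and triple mutant.

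Proliferation markers had medians of the same sign as the Cdk1 differences. For triple against double mutant 5 of 19 tested were called higher, beside 0.704% of all genes tested, and none lower (median log2 fold change 0.51). For double mutant against wild type 1 of 20 was called lower, beside 0.767% of all genes tested, and none higher (median -0.36). Besides the 2 cyclins, the calls for triple against double mutant were the mitotic kinase Plk1 (7.29 to 11.8 FPKM, q = 0.0066), the cytokinesis gene Anln (7.55 to 12.1, q = 0.0066) and the ribonucleotide reductase subunit Rrm2 (34.5 to 50.7, q = 0.0321) in the authors' deposited table. Rrm2 was also the call for double mutant against wild type, falling from 50.0 to 34.5 FPKM (q = 0.0356) in the authors' deposited table. For triple mutant against wild type none of 19 was called (median 0.21). Of the 3 atrial markers tested, only Nppa was lowest in the double mutant. It was listed at 919, 505 and 829 FPKM in wild type, double and triple mutants. Its q-value in the authors' deposited table was 0.0066 for both comparisons with the double mutant. In the same order of groups, Dkk3 stood at 12.9, 11.6 and 11.3 FPKM and Myl4 at 7.30, 7.95 and 9.88, and neither was called. The part of Nppa in the proliferation values was not tested. Mki67, the most abundant proliferation marker, was listed at 113 FPKM in wild type and 90.9 in the double mutant, and its triple mutant value is a failed estimate.

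Kinases and subunits that activate or restrain the members showed no call. Of the list with the activating kinase Cdk7, the Cdc25 phosphatases, Wee1 and the Cks subunits, none of 12, 12 and 11 genes tested was called in the 3 comparisons, with medians of 0.29, 0.21 and 0.18. Its most abundant gene, the kinase chaperone Cdc37, stood at 30.9, 36.3 and 32.6 FPKM. Other cyclin-dependent kinases had none of 9, 9 and 10 called, with medians of -0.07, 0.04 and -0.14, and Cdk8 led them at 56.9 FPKM in wild type and 41.4 in the double mutant, with a failed estimate in the triple mutant. The pocket proteins and E2F factors, the targets of these kinases, had none of 19 called in any comparison, with medians of 0.01, -0.04 and -0.12, and E2f6 was the most abundant at 21.6, 22.6 and 20.7 FPKM.

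Upstream of the inhibitors, none of 11, 10 and 13 tested genes for their turnover and transcription was called (medians 0.18, 0.08 and 0.13). Skp1a was the most abundant, at 54.3 FPKM in wild type and 59.4 in the double mutant, with a failed estimate in the triple mutant. Trp53, the gene of p53 itself, was listed at 7.09, 7.83 and 10.7 FPKM in the 3 groups, and the authors' deposited table gives its triple mutant a q-value of 0.255 against wild type and of 0.449 against the double mutant. Of the list of other p53 targets, none of 13 tested was called in any comparison, and the median log2 fold changes were 0.11, 0.03 and 0.13. In the same order 10, 8 and 9 of the 13 had a positive log2 fold change, beside 49.6%, 49.8% and 49.5% of all genes tested. Sesn1, a stress-induced target, was listed at 12.5, 15.9 and 16.9 FPKM, with a fold of 1.35 for triple mutant against wild type (q = 0.0889) in the authors' deposited table. The nuclease gene Aen stood at 26.2, 31.0 and 35.4 FPKM, also with a fold of 1.35 in that comparison (q = 0.114) in the authors' deposited table. Mdm2, the p53 ubiquitin ligase and a classic target, was listed at 29.5, 29.8 and 30.4 FPKM, and the most abundant target, Perp, stood at 334, 311 and 336. Trp53, Sesn1, Aen and Mdm2 were picked for mention after their values were seen.

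Among the TALE and Hox partners of Meis1, 1 of 9 tested was called lower for double mutant against wild type, beside 0.767% of all genes tested. This was Pknox1, from 26.1 to 18.2 FPKM (q = 0.0321) in the authors' deposited table, at a locus the file lists for another gene as well. The triple mutant stood between, at 21.2, and none of 8 was called in either comparison with it. The list's medians were -0.11, 0.09 and -0.04.

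**Figure D5:**
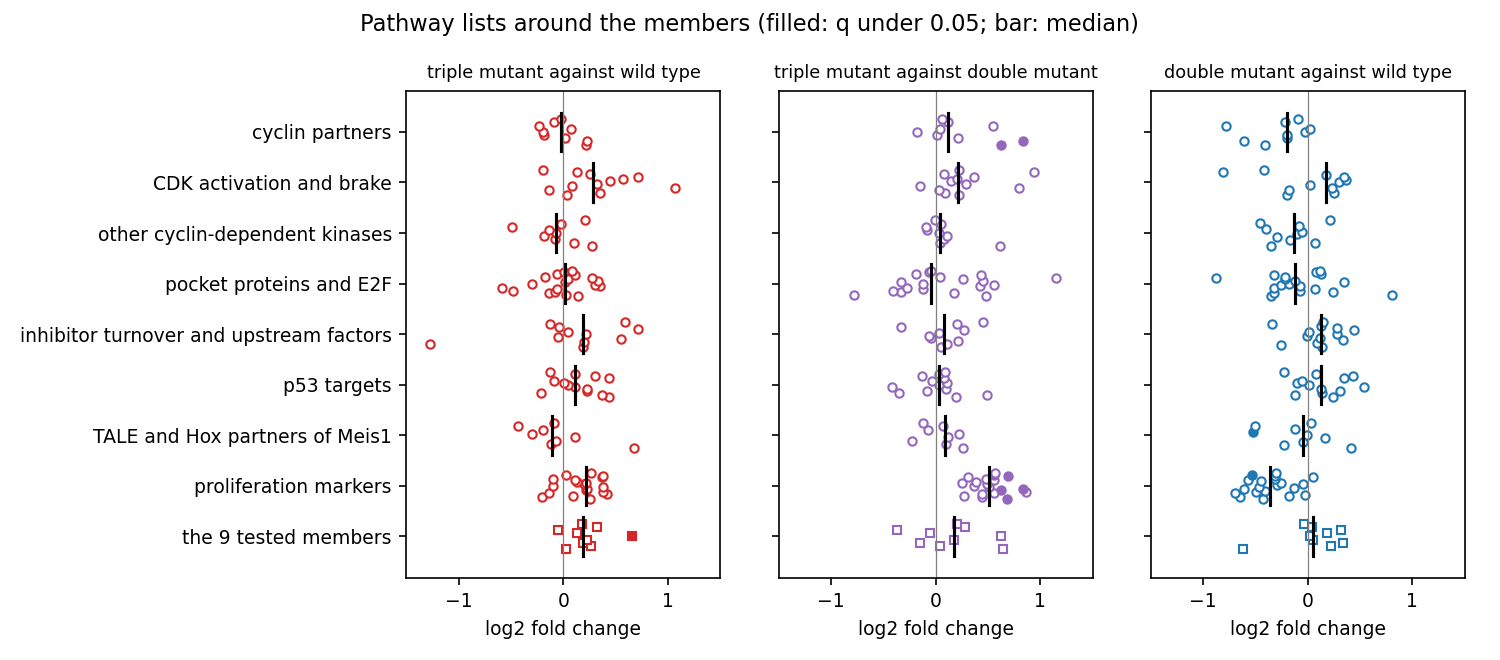
Log2 fold change (x axis) of each tested gene of the 8 pathway lists, and of the 9 tested members as squares, in the 3 comparisons. Filled points have a q-value under 0.05 and black bars are medians, and the proliferation markers lie right of 0 for triple against double mutant with a median of 0.51.

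Likeness in pattern was measured as the Euclidean distance between log2 FPKM values centred over the 3 groups, among 6833 genes in unshared loci with 1 FPKM or more in every group. Over 3 groups this is a weak measure. Nearest to Meis1 were Nagk, Dync1i2, Cyr61, Gm5601 and Hspbp1, at distances of 0.008 to 0.010, but 520 genes lay within 0.1. Cdkn2d had the widest range of log2 FPKM, but on untested levels under 0.5, so its nearest genes are not given. Cdkn1a and Cdk1 were added after their values were seen. Nearest to Cdkn1a, with 26 genes within 0.1, were 2810474O19Rik, Nat10, Prim2, Gm16439 and the cardiac stress gene Ankrd1, which was listed at 315, 329 and 489 FPKM. Nearest to Cdk1, with 48 genes within 0.1, were Troap, Zc3h8, Iqgap3, Pdcd2l and Fbxo48, and the mitotic gene Troap lay at a distance of 0.006 with 2.01, 1.31 and 2.03 FPKM.

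Cell makeup and sex could be read only from marker levels by group. All 10 cardiomyocyte markers are listed under a status of too many fragments, so the labelled tissue could not be checked on them. The summed FPKM of 10 endothelial markers was 843 in wild type, 826 in double and 716 in triple mutants, and that of 6 tested fibroblast markers was 544, 631 and 513, with none of these markers called. Mural cell markers summed to 370, 422 and 341, macrophage markers to 50.7, 54.1 and 50.5, and epicardial markers to 38.2, 45.5 and 42.9. Of the defining markers, Cdh5 stood at 204, 218 and 188 FPKM, Col1a1 at 183, 218 and 163, Rgs5 at 233, 272 and 213, C1qa at 12.1, 13.4 and 11.1, and Wt1 at 14.0, 14.3 and 12.5. The mural gene Kcnj8 was called lower for triple against double mutant (q = 0.0114) and the epicardial gene Aldh1a2 higher for double mutant against wild type (q = 0.0066) in the authors' deposited table. Erythroid markers summed to 350, 389 and 370. The part of cell makeup in the Cdkn1a and Cdk1 values was not tested, and in these bulk samples fewer cells of a type and less RNA per cell cannot be told apart.

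The Y-linked gene Ddx3y was listed at 4.82 FPKM in wild type, 14.0 in double and 10.02 in triple mutants, and Eif2s3y at 10.2, 41.1 and 31.1. The X inactivation RNA Xist had 1.21 FPKM in double mutants and 88.2 in triple mutants, and a failed estimate in wild type. Of the sex-linked genes 1 of 4, 1 of 5 and 2 of 4 tested were called in the 3 comparisons, beside 1.52%, 1.25% and 2.65% of all genes tested. The calls against wild type were of Y-linked genes, higher in the mutants. The call for triple against double mutant was Xist, higher in the triple mutant, where the 4 Y-linked genes were lower but not called. The labels leave out sex, and these levels differ between the groups, so sex cannot be told apart from genotype here. The part of sex in the Cdkn1a and Cdk1 values was not tested.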

How the data were processed

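RNA-seq of 8 mouse ventricle samples was used at the level of the 3 genotype groups. Per the labels' protocols, DNase was applied to the total RNA before stranded library preparation. The submitters' processing notes name Cuffdiff 2.2.1, Cufflinks 2.2.1, STAR 2.5.2 and CASAVA 1.8, with the build mm9, and no annotation. For every gene and each of 3 comparisons the deposited table holds the FPKM of both groups, their log2 fold change, a p-value, a q-value and the Cuffdiff statistic, which is a score. Depth is not kept in FPKM, so the precision per sample is unknown. The labels do not say whether samples are separate pups. The p-values reflect the error model of the authors' test on the libraries they entered, and not a measured spread between pups.

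Checks of the file gave 3 results. The log2 fold change is that of the deposited FPKM ratio without a pseudocount, the q-values are a Benjamini-Hochberg adjustment over all 3 comparisons together, and the authors' mark of significance lies at a q-value of 0.1. A normal z of the deposited p-value was 1.76 times the score in the median (1.67 to 2.26 from the 5th to the 95th percentile), so the score was not used as a ratio of log2 fold change to its error. Implied standard errors divide the log2 fold change by the z of p, a choice made after the file was seen. Rows with too many fragments hold a failed estimate and were left out. Loci start from 0 in the file and are printed as start plus 1.

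The members and lists were chosen with earlier results of these data known. Named genes are the members, every listed pathway gene called in any comparison, the most abundant gene of each list in wild type, and the 5 nearest in pattern for Meis1 and the member of widest range, which was Cdkn2d and is left out there because it was not tested. Cdkn2a, Cdkn2b and the sex-linked genes are named besides. A result that this rule would name is not reported here. Alternatives were q-values within a comparison, the authors' mark, FPKM minimums of 1 and 5, unshared loci, a pseudocount of 1 and 2 scalings. Strand came from GENCODE M21 by gene ID and promoters from RefSeq (GRCm38.p6). Scripts used Python 3.11.15, pandas 2.3.3, numpy 2.4.6, scipy 1.17.1 and matplotlib 3.10.9. The adjustment was tested on simulated data. The motif search was tested on short known sequences for the word TTTGAA alone, and the p53 search was not tested.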

Additional observations from a re-analysis of the deposited data

How the results depend on the processing

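The call of Cdkn1a for triple mutant against wild type held under each of the 5 alternatives for q-values, from 0.0273 without shared loci to 0.0464 within the comparison. All of them rest on the same p-value of the authors' test. The authors' mark only loosens the threshold, and the FPKM minimum of 1 left the q-value at 0.038. The FPKM minimum of 5 and unshared loci adjust over fewer genes and lowered it, to 0.0312 and 0.0273. Only the adjustment within the comparison raised it, so the others were no real check of the call. For triple against double mutant the count of members called went from 0 to 1 at the authors' mark of 0.1, by the looser threshold itself, through Cdkn1a (q = 0.0974). The q-values of Cdkn1a there ran from 0.0707 to 0.149. The other counts of members held under the alternatives run. The pathway lists were recomputed only with an FPKM minimum of 1. It left each count and each number of genes tested as they were, so it was no real check of them. Their counts at the mark of 0.1 were not computed. No member call reversed, but the largest shift under the pseudocount and the scalings was 0.0546, against 0.65 for the called Cdkn1a, so none could. Rescaling FPKM to the same sum changed the sign of 2 uncalled differences for double mutant against wild type, those of Cdkn1a (0.02 to -0.01) and Cdkn2c (0.04 to -0.003). Leaving out replicates was not run, because the file has no values per sample. No paired analysis was possible because the file gives 1 value per group. Depth limits could not be set from FPKM.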

Other observations

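Genes of the pathway lists with a q-value between the threshold of 0.05 and the authors' mark of 0.1 are given here, a choice made after their values were seen. The kinase-binding subunits Cks1b and Cks2 were listed in the authors' deposited table at 24.7 and 10.8 FPKM in wild type, 31.9 and 13.8 in the double mutant, and 36.6 and 17.7 in the triple mutant, with q-values of 0.0641 and 0.0727 for triple mutant against wild type. Cdc25c, a phosphatase that activates Cdk1, was listed at 1.03, 1.24 and 2.15 FPKM, with a fold of 2.09 for triple mutant against wild type (q = 0.0911) in the authors' deposited table. The loci of Cks2 and Cdc25c are each listed for another gene too. The p53 target Sesn1 lay in the same range (q = 0.0889 in the authors' deposited table). Meis2, the closest relative of Meis1 in the lists, was above Meis1 in each group, at 45.02, 59.98 and 72.05 FPKM, with a q-value of 0.0546 in the authors' deposited table for triple mutant against wild type. Mybl2, a factor of mitotic transcription, stood at 4.16, 2.26 and 5.03 FPKM, lowest in the double mutant like Cdk1, with a q-value of 0.0629 in the authors' deposited table for triple against double mutant. Among proliferation markers, the replication genes Mcm3 and Mcm6 had q-values of 0.0575 and 0.077 for triple against double mutant in the authors' deposited table. For double mutant against wild type Mcm2 had a q-value of 0.0641 and Anln of 0.0947 in the authors' deposited table. None of these differences passed 0.05.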
